A study of Mus musculus with 4 samples.

Results

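The transcripts examined here encode the core of the microRNA pathway: the Argonautes (Ago1 to Ago4), the TNRC6 scaffolds (Tnrc6a to Tnrc6c) and the processing factors Dicer1, Drosha and Dgcr8. Members were the probes whose RefSeq accession maps to 1 of these 10 mouse symbols, which gave 17 of 41174 probes on the array, for 8 of the 10 genes. No probe matched Tnrc6a or Tnrc6c, which are not analysed here. All 4 arrays hold RNA of testes at postnatal day 7 from mice that carry the transgene Tg-Nanos2 enhancer-3xFLAG-Nanos2-3'UTR, in which a Nanos2 enhancer drives a FLAG-tagged form of NANOS2, a germ cell protein that binds RNA. Of these, 2 were made from RNA recovered with the FLAG tag (FLAG IP) and 2 from the starting material (Input). The series calls the duplicates biological, and the labels do not say how many animals a sample holds or whether they were pooled. The age is that of the titles and characteristics, although another label field of the samples speaks of fetal gonads. No sample without the transgene was analysed here, so binding to NANOS2 cannot be told apart from what the recovery itself enriches.

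MicroRNAs are cut from long nuclear transcripts by DROSHA with its RNA-binding partner DGCR8, exported, and cut again in the cytoplasm by DICER1. An Argonaute protein then holds 1 strand and finds mRNAs that pair with its seed, and a TNRC6 protein bound to the Argonaute brings in the deadenylases and decapping factors that silence the mRNA. AGO2 is the member that also cleaves a well-paired target. In the mouse testis the pathway is required in germ cells and in Sertoli cells for spermatogenesis. NANOS2 itself acts by recruiting a deadenylase complex to its target mRNAs. The microRNAs themselves were not measured. Mature sequences from RefSeq (GRCm38.p6) are shown for the products that the genes described below make or control, with the seed (bases 2 to 8) in capitals and the 5′ end first. The let-7 sequences are shown because LIN28 and TUT4, described at the end, act on their precursors, and the miR-1306 sequences because their hairpin lies within Dgcr8.
let-7a-5p: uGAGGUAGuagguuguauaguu
let-7d-5p: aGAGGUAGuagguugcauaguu
let-7g-5p: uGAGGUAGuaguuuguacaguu
miR-1306-5p: cACCACCUccccugcaaacgucc
miR-1306-3p: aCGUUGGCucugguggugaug
All 8 let-7 names of the RefSeq table that end in 5p share 1 seed, whereas the 2 arms of miR-1306 have different seeds.

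Setting FLAG IP against Input addresses which transcripts are recovered with the tag. Among the core microRNA genes, none was called in either direction on the brightest probe of the gene: limma called 0 of 8 higher and 0 of 8 lower (adjusted p under 0.05), and 0 of 8 had an unadjusted p under 0.05. For comparison, 34.6% of the 13258 tested genes with a symbol were called by the same rule, 16.0% higher and 18.6% lower. The arrays of the groups did not overlap for 4 of the 8 genes, 2 with the FLAG IP higher (Ago1 and Ago2) and 2 with it lower (Ago3 and Ago4), beside 75.1% of all tested genes, 31.0% higher and 44.1% lower. The median change of the 8 genes was 0.09 on the log2 scale, beside −0.12 over all tested genes, and 0 of the 8 changed by 2-fold or more, as 15.1% of all tested genes did. The 95% intervals of 6 of the 8 genes lay within a 2-fold change in either direction, and those of Ago1 and Ago4 did not. With 8 genes chosen by function these counts are a description, and a change within these intervals is not excluded.

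A level is the log2 processed signal after subtraction of the array's own 75th percentile, a change is the FLAG IP mean less the Input mean, and intervals and adjusted p-values of changes come from limma fitted over all 27832 probes measured above background. Each array had between 66.3% and 68.4% of all probes well above background, with 75th percentiles of 1019 and 1268 in the FLAG IP arrays and 1475 and 1675 in the Input arrays. All 4 arrays lay on 1 slide and were scanned together, so neither is a batch here. The Pearson correlation over probes was 0.988 between the FLAG IP arrays, 0.994 between the Input arrays and 0.950 to 0.957 between the groups. The tagged gene was measured by 1 probe (A_52_P624495), at −1.94 and −2.44 in the FLAG IP arrays and −3.88 and −3.66 in the Input arrays. Nanos2 was thus higher in the FLAG IP (1.58 ± 0.22, SE, adjusted p = 0.011, or 0.063 without Input 1), and the files do not say whether this probe reads the transgene, the endogenous transcript or both. Brightness differs between probes for reasons other than abundance, so each probe is compared only with itself and no order of the genes is given.

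**Figure D1:**
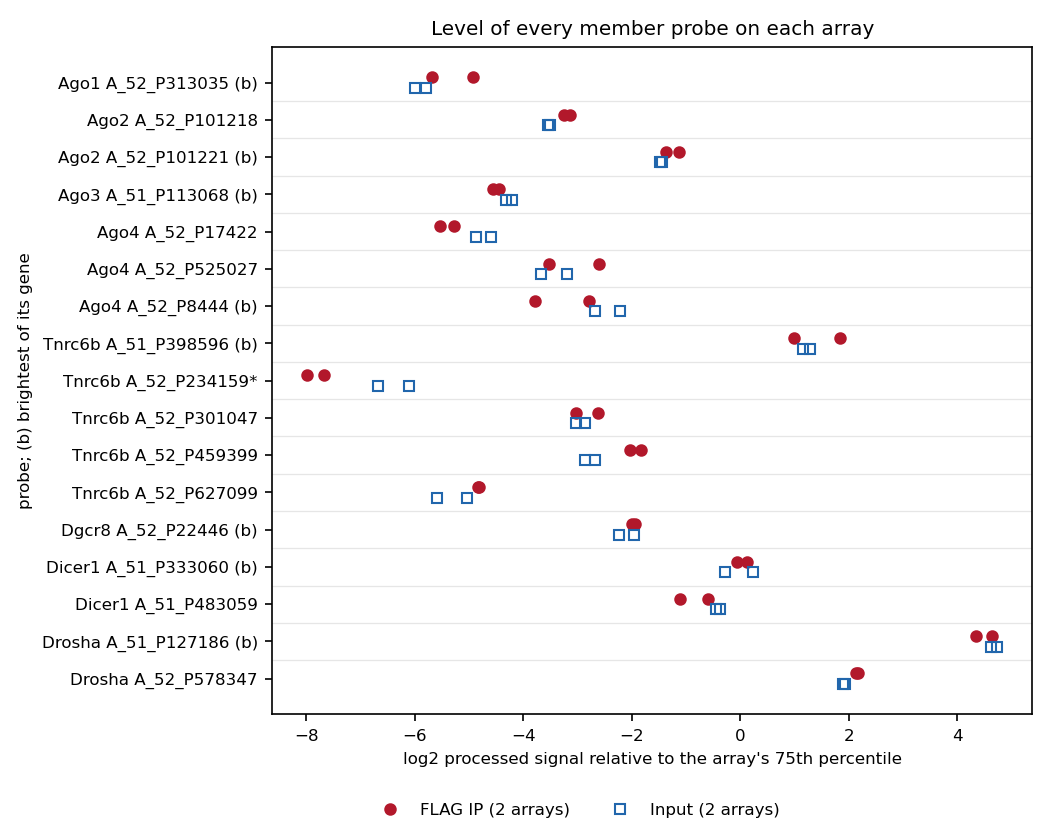
Level of each of the 17 member probes on each array, as log2 processed signal relative to the array's 75th percentile. Filled circles are the 2 FLAG IP arrays and open squares the 2 Input arrays, (b) marks the brightest probe of a gene, and the asterisk marks the Tnrc6b probe that was not well above background on any array. The 4 points of most probes lie within about 1 unit of each other, and positions along the axis are not comparable between rows.

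The changes of the Argonaute transcripts ran in both directions, and none was called on the brightest probe. Ago2, which encodes the Argonaute best known for cleaving targets, had 2 probes with the same small tendency. Its brightest probe (A_52_P101221) stood at −1.13 and −1.36 in the FLAG IP arrays and at −1.49 and −1.44 in the Input arrays. The second probe (A_52_P101218) stood at −3.14 and −3.26 in the FLAG IP arrays and at −3.54 and −3.51 in the Input arrays. Both FLAG IP arrays were thus above both Input arrays on each probe, with changes of 0.22 (95% interval −0.19 to 0.62, adjusted p = 0.31) and 0.33 (−0.03 to 0.69, adjusted p = 0.12). Neither passed the test, and both intervals leave out a 2-fold change.

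Ago1, Ago3 and Ago4 are neighbours on mouse chromosome 4, with no other gene listed between them in the RefSeq table. Ago1 was read by a single dim probe (A_52_P313035) at −4.92 and −5.67 in the FLAG IP arrays and −6.00 and −5.79 in the Input arrays. FLAG IP 1 lay well above the other arrays and FLAG IP 2 only just above the Input. The change was 0.59, the largest upward one among the 8 genes, with an interval of −0.15 to 1.34 (adjusted p = 0.16). Leaving out FLAG IP 2 turned this into a call (0.97, adjusted p = 0.023), and without FLAG IP 1 the value was 0.22. The processed signals behind it were 33.6 and 24.8 in the FLAG IP arrays and 23.1 and 30.4 in the Input arrays, and the lowest signal well above background was 13.4 to 19.4 over the arrays.

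Ago3, also measured by 1 probe (A_51_P113068), had −4.45 and −4.56 in the FLAG IP arrays against −4.20 and −4.31 in the Input arrays. The arrays of the groups did not overlap, but the change of −0.25 (interval −0.62 to 0.12) did not pass the test (adjusted p = 0.22), and it was 0.16 under another background correction (normexp).

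Ago4 had 3 probes, of which 2 lay lower in the FLAG IP and 1 did not. On the brightest (A_52_P8444) the FLAG IP arrays were at −2.78 and −3.77 and the Input arrays at −2.67 and −2.21. Both FLAG IP arrays lay below the Input, FLAG IP 1 only slightly, and the change of −0.84 had an interval of −1.83 to 0.15 (adjusted p = 0.14). Without FLAG IP 1 it was called lower (−1.34, adjusted p = 0.026). A second probe (A_52_P17422) was at −5.28 and −5.53 in the FLAG IP arrays against −4.86 and −4.60 in the Input arrays. This probe was called lower, by −0.67 ± 0.18 (adjusted p = 0.043), a 1.59-fold decrease, and was the only member probe called lower of 16 tested, where 20.0% of all tested probes were. Its call ended without FLAG IP 2 (adjusted p = 0.086), without Input 1 (0.13) and without Input 2 (0.24), with no filter on dim probes (0.079), under trend and robust moderation (0.085) and with spike-in scaling taken relative to the shift of all probes (0.35). Under normexp its change was 0.02. The probe was dim, with processed signals of 26.3 and 27.5 in the FLAG IP arrays and 50.7 and 69.1 in the Input arrays. The lowest signal well above background was 13.4 to 19.4 over the arrays.

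The difference between these 2 probes did not pass its test (0.17, adjusted p = 0.73). The remaining Ago4 probe (A_52_P525027) had a change above 0. It stood at −2.60 and −3.53 in the FLAG IP arrays and −3.67 and −3.20 in the Input arrays, so the groups overlapped, with a change of 0.37 (interval −0.58 to 1.31, adjusted p = 0.46). The difference between its change and that of the brightest probe was 1.21 ± 0.11 and passed a limma test of the difference itself (adjusted p = 0.022), which called 10.6% of the 5434 such probe pairs on the array. All 3 probes carry the same accession, and what separates them was not tested. FLAG IP 1 was above FLAG IP 2 by 0.99 on the brightest probe and by 0.92 on this one, so the pair moved together between replicates. Without FLAG IP 1 the change of this probe was −0.09, and those of all 3 probes lay below 0.

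**Figure D2:**
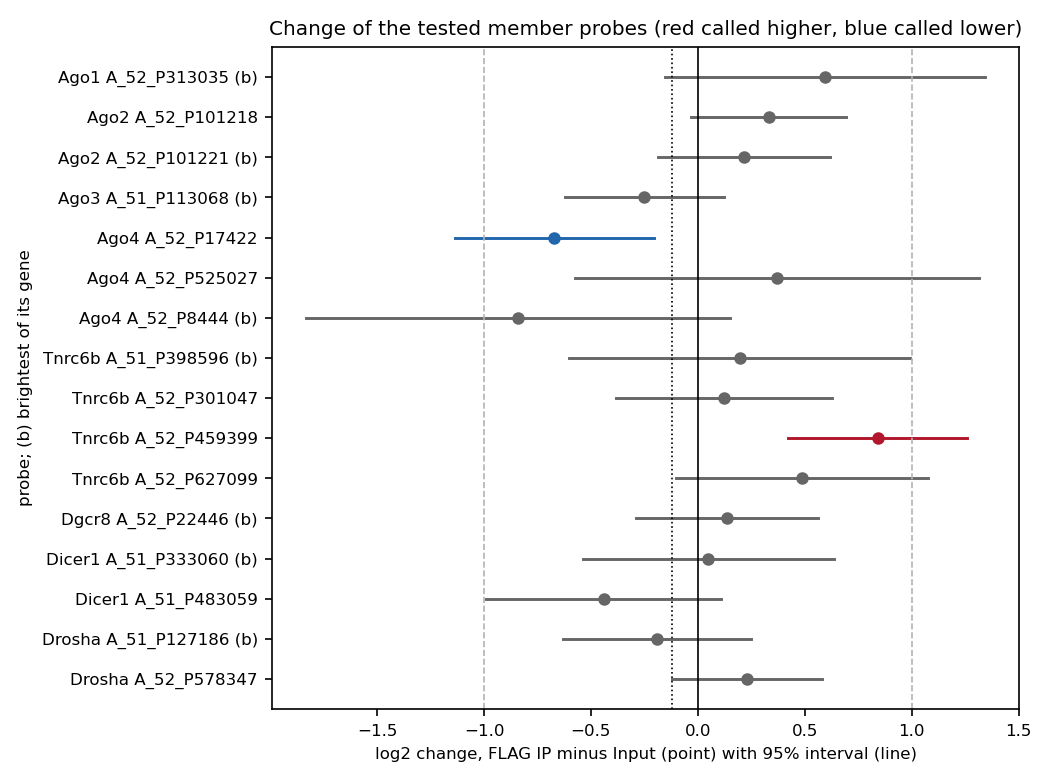
Change of each of the 16 tested member probes, FLAG IP minus Input on the log2 scale (point), with its 95% interval from limma (line). The solid line is no change, the dotted line the median of all tested genes (−0.12) and the dashed lines a 2-fold change; 1 probe of Tnrc6b is called higher and 1 of Ago4 lower.

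Tnrc6b, the only TNRC6 scaffold measured, had 5 probes on 2 RefSeq transcripts, and 4 were tested. TNRC6 proteins carry glycine-tryptophan repeats that bind Argonautes and a C-terminal part that recruits the CCR4-NOT and PAN2-PAN3 deadenylases. The brightest probe (A_51_P398596), the only one designed on transcript NM_144812, stood at 1.0 and 1.84 in the FLAG IP arrays and 1.16 and 1.29 in the Input arrays. FLAG IP 1 was below and FLAG IP 2 above both Input arrays, and the change was 0.19 (interval −0.60 to 0.99, adjusted p = 0.64), or 0.61 without FLAG IP 1 and −0.22 without FLAG IP 2.

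The other Tnrc6b probes were designed on NM_177124. A_52_P459399 was at −1.83 and −2.03 in the FLAG IP arrays and at −2.86 and −2.68 in the Input arrays, with the groups clearly apart. It was called higher, by 0.84 ± 0.16 (adjusted p = 0.020), a 1.79-fold increase, and was the only member probe called higher of 16 tested, where 15.6% of all tested probes were. The call ended without Input 1 (0.75, adjusted p = 0.15), without Input 2 (0.93, adjusted p = 0.097) and with spike-in scaling taken relative to the shift of all probes (adjusted p = 0.066). The change stayed between 0.71 and 0.97 over the 14 alternatives that gave this probe a value, except when arrays were scaled to spike-in spots with no allowance for the shift of all probes (0.03). A_52_P627099 lay at −4.83 and −4.82 in the FLAG IP arrays and −5.59 and −5.03 in the Input arrays (change 0.49, interval −0.10 to 1.08, adjusted p = 0.15). A_52_P301047 lay at −3.02 and −2.63 in the FLAG IP arrays and −3.03 and −2.86 in the Input arrays, with overlapping groups and a change of 0.12 (interval −0.38 to 0.63, adjusted p = 0.65). The fifth probe (A_52_P234159) was not well above background on any of the 4 arrays and was not tested. All 4 tested probes had changes above 0, but without FLAG IP 2 those of A_51_P398596 (−0.22) and A_52_P301047 (−0.076) lay below it. The difference of the called probe from the brightest did not pass its test (0.65 ± 0.37, adjusted p = 0.32), and neither did those of the other 2 (adjusted p = 0.61 and 0.83).

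Of the processing factors, 0 of 5 probes were called, where 35.6% of all tested probes were, and all 5 intervals lay within a 2-fold change in either direction. Drosha, the nuclear RNase III enzyme, had a bright probe (A_51_P127186) at 4.34 and 4.64 in the FLAG IP arrays and 4.75 and 4.62 in the Input arrays. FLAG IP 2 fell between the Input arrays, and the change was −0.19 (interval −0.63 to 0.25, adjusted p = 0.41). On the second Drosha probe (A_52_P578347) the levels were 2.17 and 2.13 in the FLAG IP arrays and 1.90 and 1.94 in the Input arrays, tight within each group and apart between them. That change of 0.23 (interval −0.12 to 0.58, adjusted p = 0.23) had the opposite sign and did not pass either, and neither did the difference between the probes (0.42 ± 0.17, adjusted p = 0.18). Under quantile normalization both changes were above 0 (0.085 and 0.26).

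Dgcr8, the gene that holds the miR-1306 hairpin and whose protein binds primary hairpins for DROSHA, stood at −2.00 and −1.93 in the FLAG IP arrays and −1.96 and −2.24 in the Input arrays (A_52_P22446). The groups overlapped, with a change of 0.14 (interval −0.29 to 0.56, adjusted p = 0.54). Dicer1, the cytoplasmic RNase III enzyme, stood at −0.06 and 0.12 in the FLAG IP arrays and 0.24 and −0.28 in the Input arrays on its brightest probe (A_51_P333060). Both FLAG IP arrays lay between the Input arrays, and the change was 0.05 (interval −0.54 to 0.64, adjusted p = 0.87). Its other probe (A_51_P483059) was at −0.60 and −1.10 in the FLAG IP arrays and −0.44 and −0.38 in the Input arrays, below the Input on both arrays. That change was −0.44 (interval −0.99 to 0.11, adjusted p = 0.16), which became a call without FLAG IP 1 (−0.69, adjusted p = 0.037), and the difference between the Dicer1 probes did not pass its test (−0.49 ± 0.33, adjusted p = 0.38).

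Counted over probes, 10 of the 16 tested member probes had arrays that did not overlap between the groups, 6 with the FLAG IP higher and 4 with it lower, where 73.9% of all tested probes did not overlap, 30.5% higher and 43.3% lower. By the test, 2 of the 16 were called, where 35.6% of all tested probes were. All 16 were well above background on all 4 arrays, so none entered through 1 group alone. The changes ran from −0.84 to 0.84 with a median of 0.17, beside −0.13 over all tested probes, 11 above 0 and 5 below. Of the 8 pairs formed by a member probe and the brightest probe of its gene, the Ago4 pair was the only 1 called. Besides the Ago4 probes, the FLAG IP arrays were 0.75 apart for Ago1 and 0.84 apart on the brightest Tnrc6b probe, where the median gap over all probes was 0.25 between FLAG IP arrays and 0.15 between Input arrays.

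The genes around this core were read from 7 lists, again on the brightest probe. The lists were chosen by function, with earlier results of these data known. Of the nuclear processing and export factors 1 of 14 was lower and 0 were higher, where 18.6% of all tested genes were lower and 16.0% higher, and the median change was −0.39. Hnrnpa2b1, a reader of primary microRNAs, was lower (−0.74 ± 0.17, SE, adjusted p = 0.033). The splicing factor Srsf3 (−0.48), the DROSHA cofactor Erh (−0.47) and Hnrnpa1 (−0.42) were not called on the brightest probe, although other probes of Erh (−0.76, adjusted p = 0.042) and Hnrnpa1 (−1.18 and −1.38) were. Xpo5, the export receptor, had −0.41 (adjusted p = 0.11).

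Among Dicer partners and Argonaute loading factors 2 of 13 were lower and 0 higher, with a median of −0.29, again beside 18.6% and 16.0% of all tested genes. Prkra, which encodes the DICER1 partner PACT, had levels of 1.53 and 1.54 in the FLAG IP arrays and 2.30 and 2.19 in the Input arrays, and fell by 0.71 ± 0.14 (adjusted p = 0.021). Fkbp5, a co-chaperone of HSP90, fell by 0.60 ± 0.16 (adjusted p = 0.043), while the chaperone genes Dnaja2 (−0.59, adjusted p = 0.089) and Hsp90ab1 (−0.41, adjusted p = 0.075) were not called. Tarbp2, the other double-stranded RNA-binding partner, had −0.18 (adjusted p = 0.36).

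Of the Argonaute-associated factors 1 of 14 was higher and 1 lower, beside 16.0% and 18.6% of all tested genes, with a median of 0.05. Zfp36, which binds AU-rich elements, stood at 0.94 and 0.40 in the FLAG IP arrays and −1.57 and −1.46 in the Input arrays (2.19 ± 0.22, adjusted p = 0.0066). Gemin5, of the SMN complex, fell by 0.58 ± 0.13 (adjusted p = 0.031), and Limd1 (0.58, adjusted p = 0.085) and Fmr1 (0.54, adjusted p = 0.20) were not called. Of the effectors that TNRC6 recruits 3 of 9 were higher and 1 lower, beside the same 16.0% and 18.6%, with a median of 0.40. Pan3, the transcript of the scaffold of the PAN2-PAN3 deadenylase, was higher in the FLAG IP (0.84 ± 0.18, adjusted p = 0.026). Its other probe had 0.09, with adjusted p = 0.035 in the test of the difference. Pan2, the transcript of the catalytic subunit, was lower (−0.55 ± 0.15, adjusted p = 0.048). Eif4enif1, a partner of the cap-binding protein, rose by 0.60 ± 0.14 (adjusted p = 0.033). The deadenylase gene Cnot7 was called higher on its brightest probe (0.68, adjusted p = 0.031) and lower on the other (−0.75, adjusted p = 0.024). Neither PIWI protein gene measured, Piwil1 (0.40, adjusted p = 0.12) or Piwil2 (−0.73, adjusted p = 0.088), was called, and 0 of the 9 microRNA host transcripts listed had a probe.

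Many of these calls ended when 1 array was left out. Of the 14 genes called in the 6 lists with a probe, 11 were still called without FLAG IP 1 and 7 without FLAG IP 2. Without Input 1 or without Input 2 the 3 genes still called were Zfp36, Tut4 and Lin28b, and no sign changed (0 of 14). These were also the 3 still called with spike-in scaling taken relative to the shift of all probes. Of the 13 other genes named from these lists, Fmr1 was called without FLAG IP 1 (0.93, adjusted p = 0.021), and Srsf3, Dnaja2, Tut7 and Piwil2 were called lower without FLAG IP 2. Limd1 was called under trend and robust moderation (adjusted p = 0.048), as were Dnaja2 and Hsp90ab1. Xpo5, Tarbp2, Tut7, Dis3l2 and Tent2 were named for their roles after their values were seen.

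**Figure D3:**
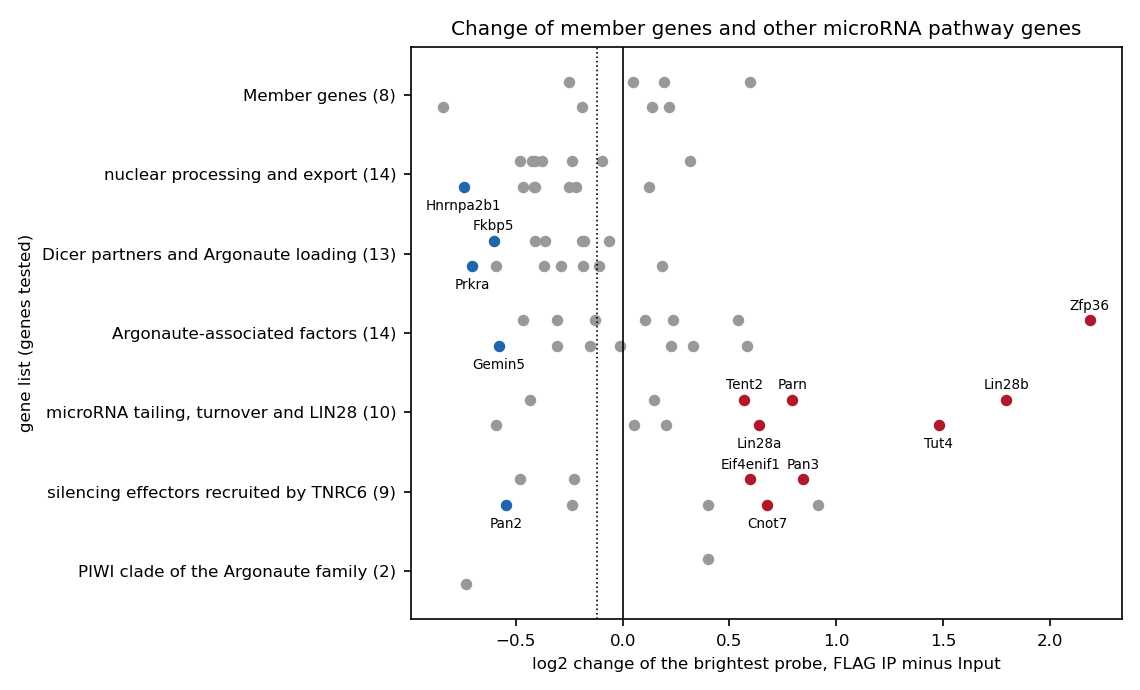
Change of the brightest probe of each tested gene, FLAG IP minus Input on the log2 scale, for the 8 member genes and 6 other lists, with the number of genes in brackets. Red points were called higher and blue points lower, and both are named; grey points were not called, which holds for all 8 member genes. The dotted line is the median of all tested genes (−0.12).

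A further list held genes that act on microRNAs and their precursors by LIN28 binding or by adding or trimming 3′ nucleotides. Of 10 tested, 5 were higher and 0 lower, with a median change of 0.39, where 16.0% of all tested genes were called higher. This list too was chosen with earlier results of these data known, so the count is only a description. Tut4, a terminal uridylyltransferase that LIN28 brings to the let-7 precursor, stood at 2.67 and 2.68 in the FLAG IP arrays against 1.11 and 1.28 in the Input arrays on its brightest probe (A_51_P469188). It was higher by 1.48 ± 0.14 (adjusted p = 0.0061), a 2.79-fold increase. Tut4 was not called under spike-in scaling with no allowance for the shift (0.67, adjusted p = 0.11). Its other 3 probes gave 1.37 (adjusted p = 0.0077), 1.41 (0.031) and 1.71 (0.053), with all FLAG IP arrays above all Input arrays, and no difference from the brightest probe passed its test (adjusted p = 0.64 to 0.90). Tut7, the paralogue with overlapping activity, had −0.43 (adjusted p = 0.20) and, on its second probe, 0.02.

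Lin28b, whose protein blocks let-7 maturation, was at 1.52 and 1.36 in the FLAG IP arrays and −0.55 and −0.16 in the Input arrays on its brightest probe (1.80 ± 0.19, adjusted p = 0.0069). Its dimmer probe had processed signals of 47.5 and 47 in the FLAG IP arrays and 48.8 and 59 in the Input arrays. That probe had a change of 0.28 (adjusted p = 0.25), and the probes differed in the test of the difference (−1.51 ± 0.16, adjusted p = 0.025). Lin28a stood at 0.51 and 0.56 in the FLAG IP arrays and −0.12 and −0.09 in the Input arrays, tight within the groups, and was higher by 0.64 ± 0.13 (adjusted p = 0.025), whereas spike-in scaling with no allowance for the shift gave −0.17. Parn, a deadenylase that trims RNA 3′ ends, was higher by 0.79 ± 0.16 (adjusted p = 0.024). Tent2, a poly(A) polymerase that adds single adenosines to microRNAs, was higher by 0.57 ± 0.13 (adjusted p = 0.034). Dis3l2, the exonuclease that degrades uridylated let-7 precursors, had 0.15 (adjusted p = 0.58).

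**Figure D4:**
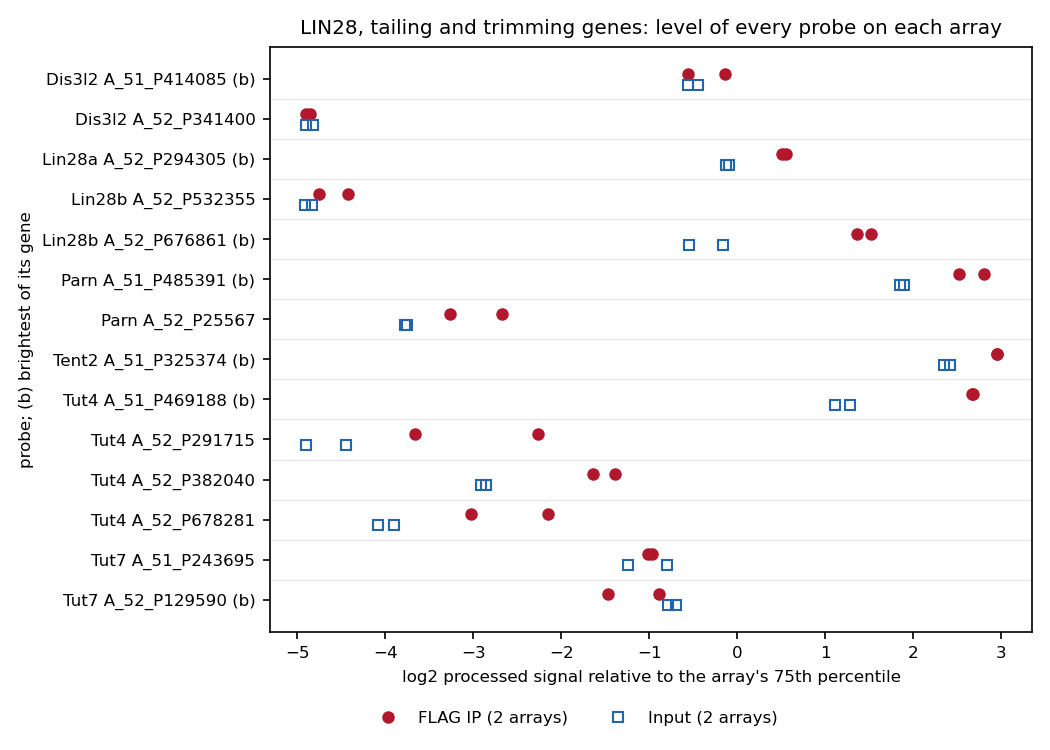
Level of each probe of 7 LIN28, tailing and trimming genes on each array, as log2 processed signal relative to the array's 75th percentile, with FLAG IP arrays as filled circles and Input arrays as open squares. All 4 probes of Tut4 have both FLAG IP arrays above both Input arrays, while the groups overlap on both Dis3l2 probes and on 1 of the 2 Tut7 probes. Positions along the axis are not comparable between rows.

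Markers of the cell types of the testis moved between the groups on the same arrays. The counts of calls below stand beside 16.0% of all tested genes called higher and 18.6% called lower. Of 9 germ cell markers 4 were higher and 0 lower, and their summed signal, relative to the 75th percentile, was 56.4 and 70.0 in the FLAG IP arrays and 44.2 and 44.9 in the Input arrays. The 4 called were Gfra1 (1.32), Id4 (1.86), Neurog3 (3.70) and Lhx1 (4.14), although the other Gfra1 probe was not called (1.02, adjusted p = 0.13). Of 11 germ cell markers listed, Zbtb16 and Sohlh1 had no matched probe. Ddx4 (0.16), Mael (0.12), Sall4 (0.14) and the differentiation marker Kit (−0.55, adjusted p = 0.079) were not called. Dazl was not called on its brightest probe (0.66, adjusted p = 0.078) or on its other (0.05, adjusted p = 0.83). Of 8 Sertoli cell markers 3 were lower, with sums of 94.1 and 105 in the FLAG IP arrays and 150 and 126 in the Input arrays. Of 6 Leydig cell markers 3 were lower, with sums of 13.3 and 17.1 in the FLAG IP arrays and 37.3 and 28.2 in the Input arrays. Of 5 peritubular myoid markers 2 were lower, with sums of 62.2 and 65.1 in the FLAG IP arrays and 97.8 and 88.3 in the Input arrays. All 3 macrophage markers were lower (0.846 and 0.998 in the FLAG IP arrays, 2.28 and 2.21 in the Input arrays), as was 1 of 2 red blood cell markers (8.74 and 11.2 in the FLAG IP arrays, 29.0 and 18.9 in the Input arrays). Of 5 endothelial markers 0 were called on the brightest probe (1.5 and 1.08 in the FLAG IP arrays, 1.33 and 1.93 in the Input arrays). A dimmer probe of Cdh5 was called lower (−1.14, adjusted p = 0.030). The germ cell sums thus lay higher in both FLAG IP arrays than in both Input arrays. The Sertoli, Leydig, myoid, macrophage and red blood cell sums lay lower. A sum gives most weight to its brightest genes, in Input 1 Cst9 (level 6.54, Sertoli), Acta2 (6.14, myoid) and Hba-a1 (4.81, red blood cell). For the germ cell sum these were Mael (4.24), Ddx4 (3.56) and Dazl (3.13), none of them called. Mael and Ddx4 lay below both Input arrays in FLAG IP 1 (4.23 and 3.35) and above both in FLAG IP 2 (4.585 and 4.01). Cst9 (−0.46, adjusted p = 0.16) and Acta2 (−0.49, adjusted p = 0.053) were not called. By gene, both FLAG IP arrays lay below both Input arrays for 8 of 8 Sertoli, 3 of 6 Leydig and 4 of 5 myoid markers. The same held for 3 of 3 macrophage and 2 of 2 red blood cell markers. Of 9 germ cell markers, 5 lay above and 1 below. Among all tested genes, both FLAG IP arrays lay above both Input arrays for 31.0% and below for 44.1%. All 9 germ cell, 8 Sertoli, 5 myoid and 3 macrophage markers were well above background on all 4 arrays, as were 5 of 6 Leydig and 4 of 5 endothelial markers. These sums compare RNA recovered with the tag with the RNA it was recovered from, not the cell makeup of different tissues, and within the Input a bulk level cannot tell fewer cells of a type from less RNA per cell. The part of this shift in the changes of the microRNA pathway genes was not tested.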

How the data were processed

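RNA of 2 FLAG IP and 2 Input samples was measured on single-colour Agilent arrays. Per the file headers and the submitters' processing notes, the authors scanned the arrays and extracted the spots with Agilent Feature Extraction 9.5. The deposited intensity values are background-subtracted processed signals, with raw medians and background intensities beside them. The authors also deposited log2 values, and each array's column matched the log2 processed signal shifted by 1 constant (within 0.01 for 99.6% of probes; column medians 6.15 to 6.25). What software did that shift is not stated.

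Outlier spots (62 to 90 per array) were left out, log2 values of a probe's spots were averaged and each array was centred on its 75th percentile. No spot was saturated (0). Tested probes were those well above background on the 2 arrays of either group. Accessions named 22951 of 41174 probes (55.7%) through RefSeq GRCm38.p6; the array was designed on an older build, so no gene coordinates are given. The test was limma's moderated model (version 3.58.1, R 4.3.3; lmFit and eBayes, two-sided, without covariates), with Benjamini-Hochberg adjustment over all 27832 probes. A gene is represented by its brightest probe. A limma fit of the same form was tested on simulated arrays with known changes, and the other steps were not. The labels name no animals, so p-values set a change against the spread between these samples. That spread was moderated over all probes, with 2 residual and 2.75 prior degrees of freedom.

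The members and lists were chosen with earlier results of these data known. Genes named by rule were every member probe, at most 4 genes of each other pathway list (called genes before others, then by size of change) and Nanos2. Xpo5, Tarbp2, Tut7, Dis3l2, Tent2 and Khsrp were added outside this rule, and the cell type markers were not subject to it. A rule naming the genes most like the member gene with the largest called change named none, since 0 member genes were called. The test between probes of a gene was added after seeing the data. The alternatives were other background corrections, scalings and filters, the authors' values, pairing, moderation, each array left out, and other ways to join probes.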

Additional observations from a re-analysis of the deposited data

How the results depend on the processing

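Counts below are given as higher then lower in the FLAG IP. The call of 0 member genes held under normexp, quantile normalization, median centring, the authors' values, both other filters, trend and robust moderation and both other ways to join probes. Under scaling to spike-in spots the median change of all tested probes was −0.93, called here the shift of all probes. Counts were then 960 and 15233 probes, 455 and 7258 genes, 0 and 3 member genes, and 0 and 5 member probes. The member median was −0.72. Relative to that shift (added after seeing the data) the counts were 3078 and 1756 probes, 1436 and 404 genes and 0 and 0 member probes, with a member median of 0.22. Without that allowance 15 of 16 member probes lay below 0, and 9 named pathway genes turned negative: the called Lin28a (−0.17), Parn (−0.01), Tent2 (−0.24), Cnot7 (−0.13) and Eif4enif1 (−0.21), and Fmr1, Limd1, Dis3l2 and Piwil1. The share of called genes that were higher was 46.3%, but 5.9% under the first of these scalings and 78% under the second. Normexp called 2 and 0 member probes and gave Ago3 0.16 and the called Ago4 probe 0.021. Quantile normalization gave the bright Drosha probe 0.085 and Hsp90ab1 0.062. Without a filter on dim probes 3601 probes and 1453 genes were lower and 0 member probes were, as under trend and robust moderation.

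Leaving out 1 array gave 1166 to 4865 probes and 558 to 2345 genes higher, 643 to 5704 probes and 128 to 2374 genes lower, 0 to 1 member genes in each direction, 0 to 2 member probes higher and 0 to 3 lower, and a member median of −0.12 to 0.16. The lowest counts came without Input 1 (1166 and 782 probes) and without Input 2 (1272 and 643), where 81.3% and 81.7% of called genes were higher. The member genes called were Ago1 without FLAG IP 2 and Ago4 without FLAG IP 1 (−1.34, adjusted p = 0.026). Signs turned, with these ranges over the 4 fits, for Ago4 A_52_P525027 (−0.093 without FLAG IP 1 to 0.83), the brightest Tnrc6b probe (−0.22 without FLAG IP 2 to 0.61), Tnrc6b A_52_P301047 (−0.076 without FLAG IP 2 to 0.32), Dgcr8 (−0.0051 without Input 2 to 0.28), Dis3l2 (−0.060 without FLAG IP 1 to 0.35) and the brightest Dicer1 probe (−0.21 without Input 2 to 0.31, and −0.04 without FLAG IP 2). A group left with 1 array is assumed to vary like the other group. The causes were not tested.

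The replicate numbers are only names here. As a replicate block they gave 2874 and 2699 probes, 1347 and 893 genes and 0 and 0 member probes, with 3 of the 14 called pathway genes still called (Zfp36, Tut4 and Lin28b), and same-numbered samples deviated in opposite ways (correlation −0.37). Crossed pairing, chosen after seeing the data, gave 5558 and 7890 probes, 0 and 1 member genes and 1 and 2 member probes. Slide as a block was not run, since all 4 arrays share 1 slide. With 2 arrays per group the intervals were wide for Ago1 and Ago4. Whether low signal over background plays a part was not tested. Over 14 alternatives, the called Tnrc6b probe was called in 10 and the called Ago4 probe in 6. The brightest probes of Tut4, Lin28b and Zfp36 were called in 14. These hold spike-in scaling only as taken relative to the shift, a form added after seeing the data. With no allowance for the shift, limma did not call Tut4 (0.67, adjusted p = 0.11) or Nanos2 (0.77, adjusted p = 0.069). It still called Lin28b (0.99, adjusted p = 0.022) and Zfp36 (1.38, adjusted p = 0.0024).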

Other observations

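Khsrp, which binds let-7 precursors, was picked once its values were known. It had −0.25 (adjusted p = 0.26) on its brightest probe and 1.01 (adjusted p = 0.028) on the other. That other probe was dim, with processed signals of 83.2 and 72.1 in the FLAG IP arrays and 47.7 and 59.5 in the Input arrays. The difference between the probes did not pass its test (1.26 ± 0.26, adjusted p = 0.056). Hnrnpa1, not called on its brightest probe, differed from it on 2 others (−0.75 and −0.96, adjusted p = 0.049 and 0.039), and the probes of Cnot7 differed by −1.43 (adjusted p = 0.031). Zfp36 had 2.19 and 2.15 on its 2 probes. Whether probes at different places of a transcript account for such values was not tested, since the files used here hold no probe sequence.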
